A study of Mus musculus with 2 samples.

Results

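The miR-183 cluster is a group of microRNAs (miRNAs), miR-183, miR-96 and miR-182, cut from 3 neighbouring hairpins. All of its listed mature products were examined in the muscle wall (tunica muscularis) of the mouse jejunum. Members were chosen by name, as every mature entry of these miRNAs, and 4 of the 1147 entries in the deposited table met this rule. These were miR-182-5p, miR-183-5p, miR-183-3p and miR-96-5p. The other arms, miR-182-3p and miR-96-3p, were not listed, and none of the 67 entries named as hairpins belonged to the cluster. Both groups were 15 days old, on a C57BL/6 background, and both were labelled with the transgene Tg(Myh11-cre,-EGFP)2Mik, as carried in a B6.Cg line, and with Dnmt1lox/lox. Per the study, *Dnmt1*-WT mice carried the *smMHC* Cre-eGFP/+ transgene with intact *Dnmt1*, the maintenance DNA methyltransferase, whereas *Dnmt1*-KO mice carried the same transgene and had lost *Dnmt1* in cells that express *Cre*. The *Myh11* promoter drives *Cre*, so the deletion is restricted to smooth muscle cells, while the RNA came from the whole muscle wall with all of its cell types. The study peeled this muscle layer off the mucosa and does not say how much mucosa, with its epithelium, remained in each sample.

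With 1 small RNA library per genotype, the variation between animals is unknown for each comparison. Values are counts of reads after scaling by a constant per library that is close to 1. Their totals were 5741906 (*Dnmt1*-WT) and 4754677 (*Dnmt1*-KO). Intervals are 95% intervals that cover counting error only. The scale of the libraries bears on each KO/WT ratio: equal library totals multiply each deposited ratio by 1.21. miR-143-3p, a smooth muscle miRNA, was the most abundant entry of both libraries. In bulk tissue, fewer cells of a type and less RNA per cell cannot be told apart.

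A miRNA is cut from a hairpin in a longer primary transcript, and mostly 1 of its arms is loaded into Argonaute, where the bases of its seed pair with target mRNAs. The hairpins of the cluster are known as products of a shared primary transcript that is abundant in sensory cells, such as photoreceptors, hair cells of the inner ear and sensory neurons. The same miRNAs are also found in epithelia and in activated lymphocytes. Mutations in the seed of miR-96 cause progressive hearing loss in mice and humans, and miR-182 and miR-96 are known to repress the transcription factor *Foxo1*.

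The 3 main products are shown first because their seeds decide which mRNAs they can pair with. Sequences are from RefSeq (GRCm38.p6), written 5′ to 3′, and capitals mark the seed, bases 2 to 8.
miR-183-5p: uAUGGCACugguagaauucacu
miR-96-5p: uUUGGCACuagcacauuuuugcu
miR-182-5p: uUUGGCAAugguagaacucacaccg
No 2 of the 3 share a seed. Counted from 1 at the 5′ end and without gaps, the seeds of miR-182-5p and miR-96-5p differ by a single substitution, A8C, and those of miR-96-5p and miR-183-5p by U2A. miR-182-5p and miR-183-5p differ by both, so that 5 of their 7 seed bases are the same. Outside the seed the order is different: miR-182-5p and miR-183-5p have 13 of the 15 bases compared in common, whereas miR-96-5p shares 7 of 15 with miR-183-5p and 6 of 16 with miR-182-5p. The target sites that match these seeds are TTGCCAA for miR-182-5p, GTGCCAA for miR-96-5p and GTGCCAT for miR-183-5p. Among the RefSeq miRNAs used here, only miR-1271-5p has the seed of miR-96-5p and it was not listed, while no other has the seeds of miR-182-5p or miR-183-5p.

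The hairpins are shown to place both arms, which are in capitals, within each precursor.
Mir183: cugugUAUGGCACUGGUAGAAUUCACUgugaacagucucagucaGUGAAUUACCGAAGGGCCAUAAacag
Mir96: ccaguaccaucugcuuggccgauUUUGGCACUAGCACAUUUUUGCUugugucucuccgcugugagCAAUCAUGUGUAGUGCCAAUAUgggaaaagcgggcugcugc
Mir182: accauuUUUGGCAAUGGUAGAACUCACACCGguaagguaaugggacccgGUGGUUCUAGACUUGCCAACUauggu
On GRCm38 they lie on the minus strand of chromosome 6, in the order of transcription *Mir183* (30169668 to 30169737), *Mir96* (30169446 to 30169551) and *Mir182* (30165918 to 30165992). *Mir183* and *Mir96* are 116 bases apart and *Mir96* and *Mir182* 3453 bases apart, and the cluster spans 3820 bases in all. No other annotated gene overlaps this span. The nearest is the long noncoding RNA gene *Rncr4*, on the opposite strand 3155 bases away (30172893 to 30175126), and the cluster sits between the protein-coding genes *Nrf1* and *Ube2h*.

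The first question was how much of each product was present with and without *Dnmt1*. mmu-miR-182-5p (miR-182-5p), the most abundant member, was listed at 227.6 in *Dnmt1*-WT (Poisson interval 199 to 259) and 387.9 in *Dnmt1*-KO (350 to 428), a KO/WT ratio of 1.70 (1.44 to 2.02). It was higher in *Dnmt1*-KO beyond counting error, and its place among the 1147 entries by level went from 233 to 190. mmu-miR-183-5p was listed at 92.3 in *Dnmt1*-WT (74.4 to 113) and 129.6 in *Dnmt1*-KO (108 to 154), a ratio of 1.40 (1.07 to 1.86). It was thus also higher in *Dnmt1*-KO, although the Poisson intervals of the 2 libraries overlap, and its place went from 315 to 289.

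The remaining products were at the edge of detection. mmu-miR-96-5p was listed at 4.0 in both libraries, and its ratio of 1.0 had an interval from 0.185 to 5.34. miR-183-3p, the minor arm of its hairpin, was listed at 2.0 in *Dnmt1*-WT and 1.0 in *Dnmt1*-KO, with an interval of the ratio from 0.00843 to 9.55. No difference was detected for miR-96-5p or miR-183-3p, and at this depth only a very large one could have been. All 8 values of the cluster were whole reads after division by the factor of their library, within 0.06, so that no sign of reads divided between similar miRNAs was seen for these products.

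**Figure D1:**
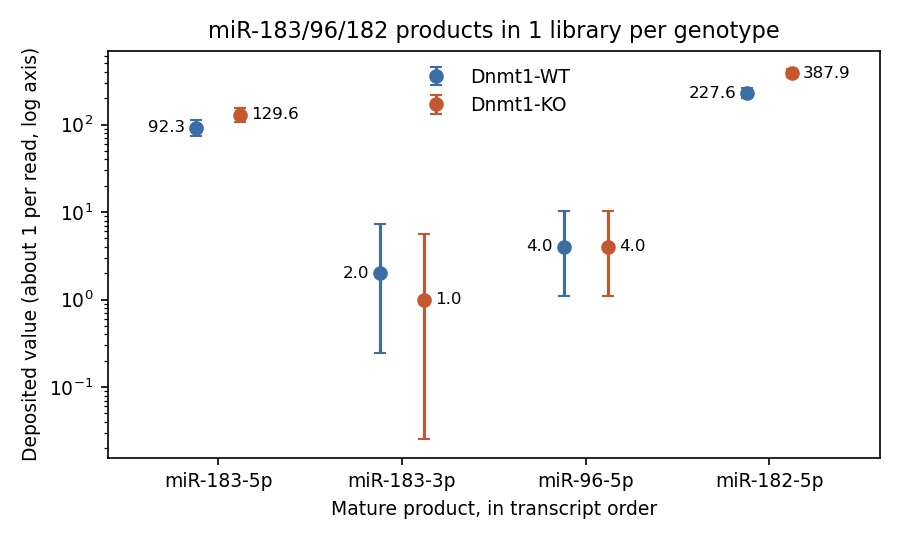
Deposited values (log axis) of the 4 listed products in *Dnmt1*-WT (blue) and *Dnmt1*-KO (orange), 1 library each, ordered by hairpin along the transcript, with exact 95% Poisson intervals as bars. The 2 abundant products, miR-183-5p and miR-182-5p, are higher in *Dnmt1*-KO, while miR-96-5p and miR-183-3p rest on 1 to 4 reads in each library.

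Summed over the 4 products, the cluster went from 325.9 in *Dnmt1*-WT to 522.5 in *Dnmt1*-KO, a ratio of 1.60 (1.39 to 1.85). As a share of all reads this was 0.00568% in *Dnmt1*-WT and 0.0110% in *Dnmt1*-KO. On that scale of equal totals, the ratio was 1.94 (1.68 to 2.23) for the sum, 2.06 (1.74 to 2.44) for miR-182-5p and 1.70 (1.29 to 2.24) for miR-183-5p. The interval of miR-182-5p included 2 on both scales, so the depth did not place it on a side of a 2-fold difference. miR-182-5p and miR-183-5p stayed higher in *Dnmt1*-KO under each of the 4 scalings tried.

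These differences have to be read against the rest of the table, because a counting interval is narrow for any abundant miRNA. Of the 316 entries whose mean over both libraries reached 100, 115, or 36.4%, had an interval above 1 on the deposited scale, and 130, or 41.1%, had one below 1. With equal totals this balance turned, with 174 (55.1%) above 1 and 88 (27.8%) below 1. Both miR-182-5p and miR-183-5p had an interval above 1 on either scale. However, miR-183-5p (92.3 in *Dnmt1*-WT and 129.6 in *Dnmt1*-KO) reached a mean of 100 only through *Dnmt1*-KO. Both products passed a minimum mean of 10 in each library. Of the 543 entries with such a mean, 172, or 31.7%, had an interval above 1 on the deposited scale and 253 with equal totals. A ratio at least as high as that of miR-182-5p was found for 35 of the 316, or 11.1%. One at least as high as that of miR-183-5p was found for 68, or 21.5%, but its own rise brought miR-183-5p past this minimum. At least 2-fold higher values on the deposited scale were found for 20 entries, or 6.33%, and none of the cluster was among them, whereas with equal totals 41, or 13%, were at least 2-fold higher, miR-182-5p (2.06) among them. The median deposited log2 ratio was -0.03 over all 316 and 0.05 over the 543, beside 0.77 for miR-182-5p and 0.49 for miR-183-5p.

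**Figure D2:**
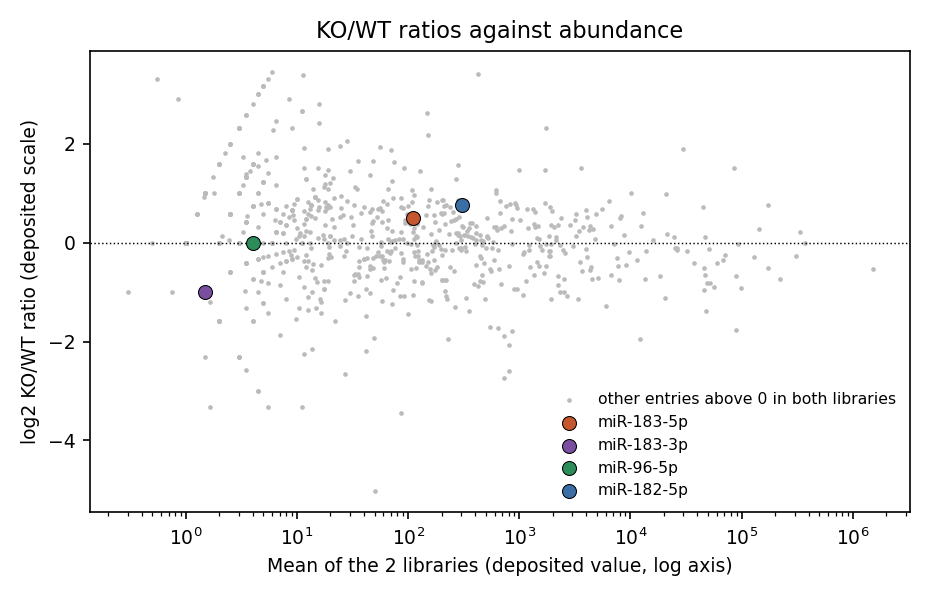
The log2 KO/WT ratio on the deposited scale against the mean of the 2 libraries (log axis) for the entries above 0 in both libraries, 1 point each, with the 4 members in colour. miR-182-5p (0.77) and miR-183-5p (0.49) lie above 0 in the upper part of entries of like level, and miR-96-5p and miR-183-3p lie in the range where ratios of whole reads scatter most.

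The next question was whether products of 1 primary transcript moved together. The KO/WT ratio of miR-182-5p was 1.21 times that of miR-183-5p, with an exact interval for this ratio of ratios from 0.875 to 1.68. This interval includes 1 and reaches up to 1.68, so counting error alone could give the difference seen, and a larger one was within reach of these counts. This comparison is within each library and does not depend on how the libraries are scaled. Against miR-96-5p the ratio of ratios was 1.71 for miR-182-5p (0.316 to 9.29) and 1.41 for miR-183-5p (0.256 to 7.78), intervals too wide to say how the third hairpin moved.

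Although they share a transcript, the products were far from equal in level. In *Dnmt1*-WT, miR-182-5p made up 69.8% of the reads of the cluster (64.5 to 74.8%), miR-183-5p 28.3% (23.5 to 33.5%), miR-96-5p 1.23% (0.336 to 3.12%) and miR-183-3p 0.615% (0.0746 to 2.21%). In *Dnmt1*-KO, the same shares were 74.2% (70.3 to 77.9%), 24.8% (21.2 to 28.7%), 0.763% (0.208 to 1.94%) and 0.191% (0.00483 to 1.06%). The order of the 4 products was the same in both libraries, and for each product the intervals of the 2 libraries overlap.

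miR-182-5p exceeded miR-183-5p by 2.47 times in *Dnmt1*-WT (1.93 to 3.18) and 2.99 times in *Dnmt1*-KO (2.45 to 3.68). It exceeded miR-96-5p by 56.9 times (21.9 to 210) and 97.0 times (37.7 to 359). Hence the hairpin farthest from the start of the cluster gave the most reads, and the middle hairpin, only 116 bases from *Mir183*, gave the fewest. Within the *Mir183* hairpin, the 5p arm exceeded the 3p arm by 46.1 times in *Dnmt1*-WT (12.4 to 386). These are ratios of reads per mature product of 22 to 25 bases and were not corrected for how well each sequence is captured in a library.

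To see how closely hairpins of other clusters moved together, hairpins at most 10 kb apart on the same strand were grouped, and each hairpin was given the ratio of the more abundant of the arms that RefSeq assigns to it alone, where this arm had a mean of at least 10. This gave 32 clusters with at least 2 measured hairpins. Of their 117 measured hairpins, 18 were represented by a less abundant arm, 4 of them because the main arm (miR-23b-3p, miR-34c-5p, miR-485-5p or miR-532-5p) was not matched to RefSeq, and the others because several hairpins give the same main product. The spread, the highest minus the lowest log2 ratio, was 0.28 for miR-182-5p and miR-183-5p, which placed the cluster at 6 of 32 from the smallest, where the median spread was 0.64 and the range 0.05 to 2.82. The counting interval of this spread, for miR-182-5p minus miR-183-5p, ran from -0.193 to 0.746, which reaches past the median of 0.64. The rank is thus uncertain by counting error alone. A cluster of many hairpins has more room to spread. Among the 21 clusters with exactly 2 measured hairpins, the miR-183 cluster stood at 5, with a median of 0.46. On the deposited scale, 11 of the 32 clusters had all measured hairpins higher in *Dnmt1*-KO, 9 had all lower and 12 had both directions. These counts depend on the scaling, since equal totals add 0.27 to each log2 ratio, whereas the spreads do not. miR-96-5p entered only when the minimum mean was lowered to 1, which raised the spread of the cluster to 0.77, at 21 of 39. With unmatched arms assigned to their hairpins by name, the cluster stood at 8 of 34, and with the hairpins that a less abundant arm represents left out at 4 of 21, both alternatives chosen after seeing the data. In 6 of the 117 hairpins the arm reached a mean of 10 only through the library where it was higher, which by itself widens a spread. Without these hairpins, also chosen after seeing the data, the cluster stood at 7 of 28 with a median spread of 0.55. At a minimum mean of 100 it stood at 6 of 19 with a median of 0.53. There, however, miR-183-5p (92.3 and 129.6) itself passed only through *Dnmt1*-KO.

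**Figure D3:**
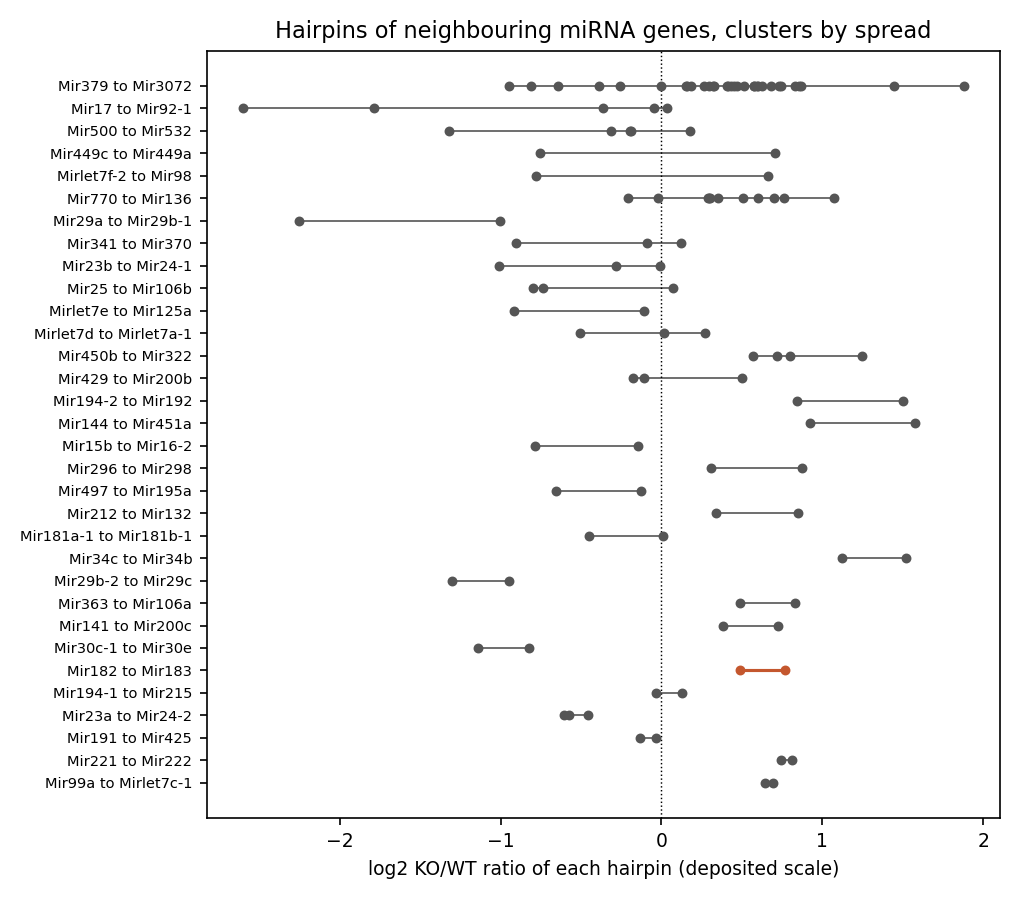
Each row is a cluster of neighbouring miRNA genes, named by its first and last gene by coordinate, and each point is the log2 KO/WT ratio of a measured hairpin on the deposited scale, with a line over the spread. The miR-183 cluster (orange, Mir182 to Mir183) has a spread of 0.28 with both measured hairpins above 0, and rows run from the smallest spread (0.05) at the bottom to the largest (2.82) at the top.

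The epithelial miRNAs most like this cluster are the miR-200 family, which keeps epithelial cells from taking on a mesenchymal state, and the intestinal group of miR-192, miR-194 and miR-215. Of their 15 listed products, 13 had a mean of at least 10. Of these 13, 9 were higher in *Dnmt1*-KO and 4 lower on the deposited scale, where 51.6% of the 543 entries with such a mean were higher. They had a median log2 ratio of 0.38 beside 0.05 over the 543. At a minimum mean of 100, however, 3 of the remaining 7 were higher and 4 lower, beside 47.5% of 316 entries higher, and their median of -0.03 was that of the 316. This balance holds on the deposited scale, since with equal totals all 7 were higher, beside 204 of the 316 entries. Their median of 0.24 was again that of the 316. An interval above 1 was found for 6 of the 13, where 31.7% of the 543 had one, and none had an interval below 1, where 29.7% of the 543 had one. These counts include miR-200a-5p and miR-194-2-3p, which passed the minimum only through *Dnmt1*-KO. Without entries that passed through a single library, 7 of 11 were higher with a median of 0.13 and 4 had an interval above 1 (36.4%), beside 50.2% higher, a median of 0.01 and 30.2% with such an interval over 500 entries. With equal totals, all 13 were higher in *Dnmt1*-KO, beside 65.9% of the 543.

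Within the miR-200 family, miR-200b-3p was listed at 422.2 in *Dnmt1*-WT and 596.3 in *Dnmt1*-KO (ratio 1.41, 1.24 to 1.60) and miR-200c-3p at 65.2 and 107.7 (1.65, 1.20 to 2.28). Both were higher in *Dnmt1*-KO beyond counting error. The minor arm miR-200a-5p was listed at 3.0 and 19.0 (6.33, 1.85 to 33.2), but it reached a mean of 10 only through *Dnmt1*-KO and had to differ. In contrast, miR-200a-3p at 298.3 and 276.7 (0.928, 0.784 to 1.10) and miR-429-3p at 174.5 and 154.6 (0.886, 0.709 to 1.11) were slightly lower, with intervals that include 1. Their ratios became 1.12 and 1.07 with equal totals, so their direction depended on the scaling. miR-141-3p stood at 103.8 and 135.1 (1.30, 0.992 to 1.68) and miR-200b-5p at 17.1 and 18.0 (1.05, 0.512 to 2.17). Values of miR-141-3p and miR-200a-3p were not whole reads within 0.06, so their counts may be divided with another miRNA.

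Among the intestinal miRNAs, miR-192-5p was listed at 4619 in *Dnmt1*-WT and 8272 in *Dnmt1*-KO, whereas miR-215-5p, which has a similar sequence, was listed at 7260 and 7093. The KO/WT ratio of miR-182-5p was 0.952 times that of miR-192-5p (0.803 to 1.13) and 1.74 times that of miR-215-5p (1.47 to 2.07). Only the second of these intervals leaves out 1. Among the other products, miR-194-5p stood at 1559 and 1494, miR-215-3p at 79.2 and 117.7, miR-194-1-3p at 30.1 and 32.9, and miR-194-2-3p at 6.0 and 17.0.

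The spread within these epithelial clusters differed. *Mir141* and *Mir200c*, also on chromosome 6, had a spread of 0.34 with both higher in *Dnmt1*-KO. In contrast, the spread over *Mir429*, *Mir200a* and *Mir200b* on chromosome 4 was 0.67, with hairpins in both directions on the deposited scale. *Mir194-1* and *Mir215* on chromosome 1 had a spread of 0.16 and *Mir194-2* and *Mir192* on chromosome 19 one of 0.66, where miR-194 was represented by its 3p arms because both hairpins give the same 5p product. The last of these spreads rests on miR-194-2-3p, at 6.0 and 17.0.

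**Figure D4:**
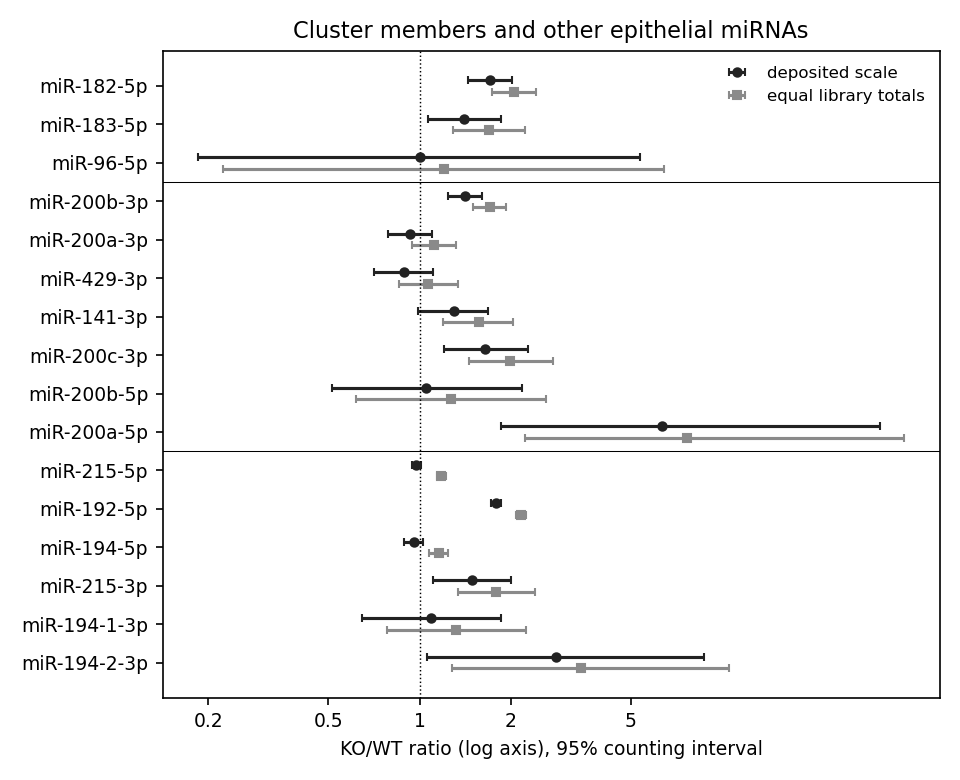
KO/WT ratios (log axis) with exact 95% counting intervals for the 3 main products of the cluster (top), the miR-200 family (middle) and the miR-192 group (bottom), on the deposited scale (black) and with equal library totals (grey). miR-182-5p (1.70) lies near miR-192-5p (1.79) and miR-200c-3p (1.65), and the interval of miR-96-5p spans 0.185 to 5.34.

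In sum over their products, the miR-200 family had a KO/WT ratio of 1.21 (1.11 to 1.31) and the miR-192 group one of 1.26 (1.23 to 1.28). The ratio of the miR-183 cluster sum was 1.33 times that of the miR-200 family (1.13 to 1.56) and 1.28 times that of the miR-192 group (1.11 to 1.47), both beyond counting error and independent of the scaling. By member, this ratio of ratios against the miR-200 family was 1.41 for miR-182-5p (1.17 to 1.70) and 1.16 for miR-183-5p (0.873 to 1.56), so that only the first of these intervals leaves out 1. In level, the cluster was the smallest of the 3: its reads were 0.300 times those of the miR-200 family in *Dnmt1*-WT and 0.398 times in *Dnmt1*-KO.

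Markers of other cell types in the muscle wall also differed between the libraries. Their counts of products are to be read beside all 543 entries with a mean of at least 10, of which 51.6% were higher in *Dnmt1*-KO and 47.9% lower on the deposited scale, and 65.9% higher with equal totals. The summed leukocyte miRNAs (miR-142a, miR-223, miR-150, miR-155 and miR-342) went from 6085 to 10150 (ratio 1.67, 1.62 to 1.72), with 7 of the 8 products that had a mean of at least 10 higher in *Dnmt1*-KO. This sum mixes unlike members: the most abundant, miR-342-3p, had a ratio of 1.20 (4174.8 to 5023.8), and the others of the 8 ran from 0.913 (miR-342-5p) to 5.01 (miR-142a-5p). The summed endothelial arms of miR-126a went from 10080 to 14282 (1.42, 1.38 to 1.45), with 2 of 2 higher and miR-126a-3p the most abundant (1.27). The red cell list of miR-451a, miR-144 and miR-486a went from 12745 to 47217 (3.70, 3.63 to 3.78). On it, 3 of 3 were higher besides miR-144-3p (2.0 and 20.9), which reached the minimum only through *Dnmt1*-KO. Nearly all of this sum is miR-486a-5p (12592 to 46756, ratio 3.71), so that it mostly follows that miRNA. The study names miR-486a among miRNAs tied to cell identity and proliferation. miR-451a went from 141.4 to 420.8 (2.98, 2.45 to 3.63). The smooth muscle list of miR-143, miR-145a, miR-145b, miR-133a, miR-133b and miR-1a went from 2217830 to 1446765 (0.652, 0.651 to 0.654), with 8 of 9 lower and miR-143-3p the most abundant (0.694). The neuroendocrine list of miR-375, miR-7a and miR-7b went from 10637 to 7562 (0.711, 0.690 to 0.732), with 3 of 4 lower. By the mean of the libraries miR-7b-5p was its most abundant member (0.714), while in *Dnmt1*-WT miR-7a-5p (0.686) was. The neuroendocrine sum is mostly miR-7a-5p and miR-7b-5p. In contrast, miR-375-3p went from 261.7 to 298.2 (1.14, 0.962 to 1.35), and with equal totals its interval lay above 1 (1.38, 1.16 to 1.63). The neural list of miR-9, miR-124, miR-128, miR-129, miR-138 and miR-218 went from 13465 to 12396 (0.921, 0.898 to 0.943). Of its 13 products with such a mean, 8 were lower, but with equal totals its summed ratio became 1.11 and 10 were higher. By the mean of the libraries miR-218-5p was its most abundant member (0.898), while in *Dnmt1*-WT miR-138-5p (0.453) was. The neural sum mixes unlike members. On the deposited scale, 4 of the 13 had an interval above 1 and 4 one below 1, beside 31.7% and 29.7% of the 543. Examples are miR-129-5p (1.28, 1.20 to 1.36) and miR-9-3p (0.504, 0.409 to 0.619). Among all members of these lists, only minor arms were listed at 0, namely miR-133b-5p in *Dnmt1*-WT and miR-128-2-5p in *Dnmt1*-KO. Against the leukocyte sum, the ratio of ratios of the miR-183 cluster sum was 0.961 (0.832 to 1.11), and against the endothelial sum 1.13 (0.981 to 1.31). Both intervals include 1. Against the smooth muscle, neuroendocrine, neural and red cell sums it was 2.46, 2.255, 1.74 and 0.433, with intervals that leave out 1. The red cell value is in effect one against miR-486a-5p. The part of any of these cell types in the values of the miR-183 cluster was not tested. By flow cytometry of muscle wall at the same age, the study found more immune (CD45-positive) cells and fewer eGFP-positive smooth muscle cells in *Dnmt1*-KO.

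Likeness to other entries was measured as the distance between log2 values in the 2 libraries, with a pseudocount of 1. The 5 entries nearest to miR-182-5p were miR-323-3p, miR-152-5p, miR-155-5p, miR-212-5p and let-7b-3p, at distances of 0.20 to 0.32. The 5 nearest to miR-183-5p were miR-299b-3p, miR-770-3p, miR-141-3p, miR-760-3p and miR-221-5p, at 0.14 to 0.20. Of these 10, only miR-141-3p is on the epithelial lists and only miR-155-5p, induced in activated immune cells, on the leukocyte list. With 2 libraries, such a distance reflects level and ratio alone.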

How the data were processed

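Small RNA was sequenced from jejunal tunica muscularis at postnatal day 15, 1 library per genotype. The study lists males and females for both genotypes without saying whether their RNA was pooled. Groups follow the genotype label. A free-text field of *Dnmt1*-WT gives the mutant genotype, against its title, and was disregarded. A commercial provider sequenced the libraries, the reference genome was GRCm38 (mm10), and the submitters' processing notes name Bowtie. Settings, miRNA database release and scaling are not given in the sources used here.

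The values deposited by the authors are read counts scaled by 1 factor per library, with 1 decimal. The factor was found from the values: 86.9% of 229 WT values and 89.1% of 248 KO values from 20 to 300 were whole multiples, within 0.05, of 1.00286 and 0.99723. Dividing by it gave 5725560 and 4767884 implied reads. Since part of the values are fractional, no count test was run, and with 1 library per group no p-value was computed. The authors' own fold change column was not used.

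From the implied reads, rounded, levels were given exact Poisson intervals, ratios and shares exact binomial (Clopper-Pearson) intervals, and ratios of ratios the exact conditional odds ratio interval (Python 3.11.15, scipy 1.17.1). The reads carry no molecular identifiers and may be PCR copies, which the intervals do not cover. The method was tested on simulated data, which held Poisson counts times 1 factor per library. Fractional reads, PCR copies and variation between animals were not simulated, so the test does not cover them. Of 1080 mature entries, 918 matched RefSeq by name, and hairpins were grouped with the 878 that had a single gene. Named miRNAs were all listed arms of the cluster, miRNAs that share a seed with a main product, members of the epithelial lists whose mean reached 10, the most abundant member of each other list, and the 5 nearest entries of each main product. Other miRNAs named in the report, such as miR-144-3p, miR-142a-5p, miR-342-5p, miR-133b-5p, miR-128-2-5p, miR-375-3p, miR-451a, miR-129-5p, miR-9-3p and miR-23b-3p, were chosen after their values were seen. Members and lists were chosen with earlier results of these data known. Alternatives were scaling, pseudocount, minimum mean, arms, hairpin distance and, added after seeing the data, how arms were matched to hairpins and leaving out products that pass the minimum mean through 1 library.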

Additional observations from a re-analysis of the deposited data

How the results depend on the processing

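Scaling moved the ratios most. With equal library totals, the KO/WT ratio of miR-182-5p went from 1.70 to 2.06 and that of the summed cluster from 1.60 to 1.94, each outside its counting interval. The ratios of miR-182-5p, miR-183-5p, miR-96-5p and the sum, the ratios of ratios and the shares stayed within their counting intervals under the other alternatives. These were the other scalings, pseudocounts of 1 and 10, the 5p products alone and both arms together. Scalings and pseudocounts could not turn the direction of miR-182-5p, miR-183-5p or the sum. Each other scaling raises every deposited ratio, and a pseudocount only draws it towards 1. With the 5p products alone, the sum was also higher (1.61). The spread within the cluster went from 0.28 to 0.77 with a minimum mean of 1, which adds miR-96-5p at 4.0 in each library. With hairpins at most 3 kb apart no value could be given, since *Mir182* then falls outside the cluster. The count of epithelial products higher in *Dnmt1*-KO went from 9 of 13 to 3 of 7 at a minimum mean of 100, so that the majority turned on the deposited scale, where the median log2 ratio went from 0.38 to -0.03. At that minimum, 7 of 7 were higher with equal totals, 6 of 7 with equal totals without miR-143-3p and 4 of 7 with the median set to 1. Of all 316 entries with such a mean, 204, 190 and 160 were higher under these scalings, beside 150 on the deposited scale. No paired analysis was possible because there was 1 library per genotype. Depth limits miR-96-5p and miR-183-3p, which rest on 1 to 4 reads per library.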
